A study of Mus musculus with 2 samples.

Results

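Of 10 genes that drive adipocyte differentiation or handle fatty acids, Lpl and Fabp4 were at least 2-fold lower in mouse embryonic fibroblasts (MEFs) given GapmeR AK156230, and none was 2-fold higher. Pparg, Cebpa, Cebpb and Cebpd encode transcription factors. Fabp4, Fabp5, Lpl, Cd36 and Plin2 encode proteins that bind, release, take up or store fatty acids, and Adipoq encodes the hormone adiponectin. Every probe set that the platform annotation assigned to exactly 1 of these genes was used, which made 19 of the 45037 probe sets on the array and 10 of 18193 named genes. The cells were young primary MEFs at passage 2 from whole C57BL/6 embryos at E13.5, a mixed embryonic culture and not a clone. A culture received GapmeR Control and another GapmeR AK156230, a single antisense oligonucleotide against the long noncoding RNA AK156230. Each culture was hybridized to 1 array, called the control array and the knockdown array here. With 1 array per condition no test was possible, no difference has a replicate check, and having so few arrays limits how precise any value is.

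Adipogenesis is the conversion of fibroblast-like precursors into fat cells, and embryonic fibroblasts are a classical model of it. In the textbook order, C/EBPβ and C/EBPδ are induced first and switch on PPARγ and C/EBPα, which then maintain each other and turn on the genes of the fat cell. Fatty acids released from lipoproteins by lipoprotein lipase enter the cell with the help of CD36, are carried by FABP4 and FABP5, and are stored as triglyceride in droplets coated by perilipins such as PLIN2. Macrophages, endothelium and muscle also use several of these genes.

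RefSeq promoter windows of GRCm38.p6 were matched by symbol for 6 of the 10 genes, in 8 windows. The 250 bases upstream of a start are shown for Plin2 and Cd36, whose ratios had opposite directions, and for the furthest downstream of the 3 Pparg windows, since C/EBP proteins are known to act on Pparg. Capitals mark matches on either strand to the CCAAT box, to the TATA box motif TATAAA, to the hexamer of many nuclear receptor sites, which reads AGGTCA, and to a C/EBP motif, which reads TTGCNNAA.
Plin2 (chr4:86670060-86670309, minus strand): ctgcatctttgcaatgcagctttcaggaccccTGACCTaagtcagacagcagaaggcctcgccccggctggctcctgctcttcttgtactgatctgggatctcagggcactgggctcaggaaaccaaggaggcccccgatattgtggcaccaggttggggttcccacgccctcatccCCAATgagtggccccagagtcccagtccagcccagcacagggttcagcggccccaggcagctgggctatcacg
Cd36 (chr5:17835897-17836146, minus strand): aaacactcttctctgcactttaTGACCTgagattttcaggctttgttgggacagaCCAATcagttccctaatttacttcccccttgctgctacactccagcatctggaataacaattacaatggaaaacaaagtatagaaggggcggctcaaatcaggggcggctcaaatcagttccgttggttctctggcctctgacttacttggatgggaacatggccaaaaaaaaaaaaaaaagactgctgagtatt
Pparg (chr6:115421816-115422065, plus strand): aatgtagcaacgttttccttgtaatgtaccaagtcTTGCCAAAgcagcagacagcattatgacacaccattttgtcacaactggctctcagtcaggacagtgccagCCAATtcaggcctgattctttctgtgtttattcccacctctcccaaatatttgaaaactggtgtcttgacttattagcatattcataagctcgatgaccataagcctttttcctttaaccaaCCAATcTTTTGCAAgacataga
The Plin2 and Cd36 windows held the same kinds of match, 1 AGGTCA and 1 CCAAT each. The outermost base of AGGTCA lay 218 bases before the start used for Plin2 and 228 bases before that used for Cd36. Both starts lie inside the gene spans given below, so neither is the outermost start of its gene. Of 32851 windows of this length in the table, 14% held AGGTCA and 33.8% held CCAAT. The Pparg window held TTGCNNAA at 215 and at 16 bases before the start, a motif in 9.56% of windows. Neither the other Pparg windows nor those of the other genes held this motif. A match describes the letters only and says nothing of binding.

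The values are MAS5 signals, which summarise the probes of a probe set on a linear scale. The median was 54.8 on the control array and 50.95 on the knockdown array, and a probe set or gene is called bright here if its higher signal reached the median of that array. Ratios are given as log2 of knockdown over control, and their median was -0.066 over all probe sets. Between the 2 brightest probe sets of a gene the ratios varied with an SD of 0.276 (log2) per probe set, which is a spread between probes and not between samples. All 16 measured fibroblast markers lay above the median on both arrays, and 8 of these were at least 2-fold lower on the knockdown array. Of all bright named genes, 4.92% were lower to that degree. AK156230 itself had no annotated probe set, and its level was not measured here.

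Of the 19 probe sets, 6 were at least 2-fold lower (31.6%) and 0 were 2-fold higher. Over the whole array 3.28% of probe sets were lower and 1.45% higher to that degree, and among bright probe sets 4.32% and 1.78%. The 6 belonged to Fabp4 (3), Lpl (2) and Cd36 (1). Probe sets of the same gene are repeat readings and not independent. The 10 genes were chosen with earlier results of these data known, so setting their shares beside those of the array is not a test. Log2 ratios were below 0 for 16 of the 19, against 57.8% of all probe sets, and their median was -0.71. Counted as genes by the brightest probe set, 2 of 10 were at least 2-fold lower, against 3.85% of named genes, and 0 were higher, against 1.59%. At a threshold of 1.5-fold, 10 of the 19 probe sets were lower and 1 was higher, against 9.37% and 5.49% of all probe sets, and 5 of the 10 genes were lower and 1 was higher, against 9.69% and 5.48% of named genes. Of the 19, 4 were not bright, and 1 of these was among the 6.

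**Figure D1:**
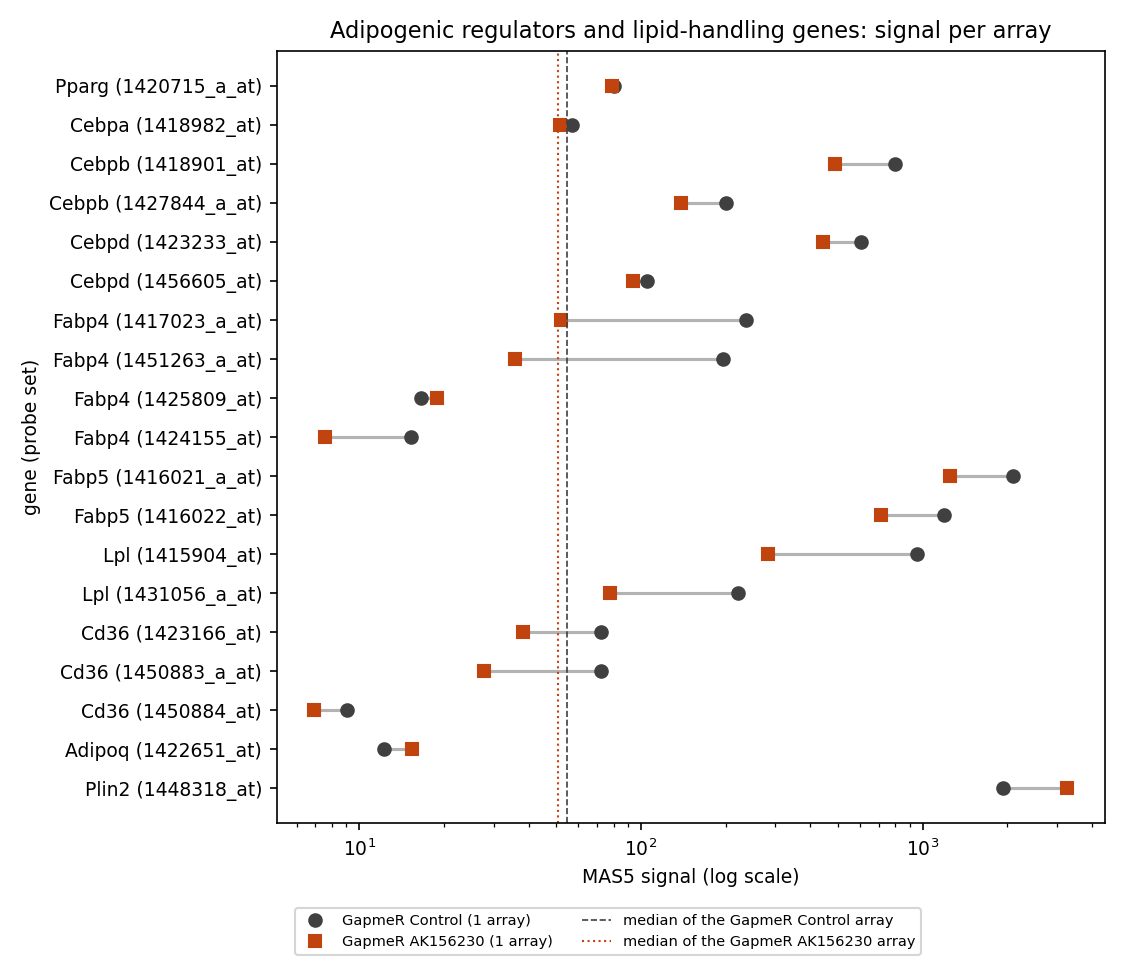
MAS5 signal on a log axis of each of the 19 probe sets, with a circle for the GapmeR Control array and a square for the GapmeR AK156230 array (1 array each, joined by a line), and vertical lines at the medians of the arrays. Lpl lies at 954.36 and 281.65, the Pparg points lie on each other, and Adipoq lies far to the left at 12.24 and 15.36.

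None of the transcription factor genes differed by 2-fold. Pparg, the nuclear receptor required for fat cell formation, read 80.14 and 79.29 on the control and knockdown arrays at its only probe set, a log2 ratio of -0.02. The arrays gave nearly the same value, and the sign of the ratio turned when both arrays were scaled to the same median (0.09), by quantile normalization (0.07) and by loess (0.05). The annotation does not tell which transcripts this probe set reads, and Pparg has more than 1 start, so a difference limited to some transcripts could be missed. Pparg lies on chromosome 6 from 115360879 to 115490404. Cebpa, which encodes a factor that sustains PPARγ in mature fat cells, read 57.16 and 51.82, close to the median of each array, with a log2 ratio of -0.14. Cebpa lies on chromosome 7 from 35119293 to 35121928.

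The early C/EBP genes were lower, within 2-fold. Cebpb, which encodes C/EBPβ, an early inducer of adipogenesis and also a factor of the secretory programme of senescent cells, read 799.57 and 490.15, 1.63-fold lower. Its second probe set read 200.73 and 138.57, 1.45-fold lower, so both readings of Cebpb lay on the same side. Cebpd, which encodes C/EBPδ, read 602.57 and 443.36, 1.36-fold lower. Its second probe set read 105.47 and 93.76, 1.12-fold lower. Cebpb lies on chromosome 2 from 167688915 to 167690432 and Cebpd on chromosome 16 from 15887286 to 15889545. Over the 6 probe sets of the 4 transcription factor genes the median log2 ratio was -0.31.

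Relatives and partners of these factors also stayed within 2-fold. Of 10 measured genes of the C/EBP and PPAR families and their partners, 0 were higher and 0 lower to that degree, with log2 ratios from -0.56 to 0.68. Ddit3 encodes CHOP, a C/EBP relative that can block the others by pairing with them, and read 1194.02 and 907.59. Cebpg, another relative, read 282.81 and 260.95. Of the other PPAR genes, Ppard read 72.05 and 115.55, 1.60-fold higher, with 0.29 (log2) at its second probe set. Ppara read 24.31 and 16.49, under the median on both arrays, with -0.92 and -0.26 (log2) at its other probe sets.

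Lpl encodes lipoprotein lipase, the enzyme that frees fatty acids from circulating triglyceride, and was more than 2-fold lower at both of its probe sets. The brighter one read 954.36 and 281.65 on the control and knockdown arrays, 3.39-fold lower. The other read 221.09 and 77.58, 2.85-fold lower. All 4 signals lay above the medians, and the probe sets are annotated to different source sequences. Lpl lies on chromosome 8 from 68880555 to 68906932 and spans 26.4 kb. Of bright genes between 20 and 40 kb long, 2.76% were at least 2-fold lower. The brighter Lpl probe set had the 395th lowest ratio of the 45037.

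Among the genes that work with lipoprotein lipase, Vldlr was the one past 2-fold. Of 11 measured partners and relatives, 1 was lower and 0 were higher to that degree, and the median log2 ratio was -0.34, against -0.074 over all named genes. Vldlr encodes a receptor of triglyceride-rich lipoproteins and read 505.74 and 117.89, 4.29-fold lower. Its log2 ratios elsewhere were -2.07, -1.36, -1.32, -1.31 and -0.61, all on the same side of 0, with knockdown signals under the median. With 24.3, the 25th percentile of all signals, added to every signal, these were -1.52, -0.99, -0.91, -0.87 and -0.36. The brightest probe set then had -1.9. Angptl4, which encodes an inhibitor of the lipase and is a known PPAR target, read 189.75 and 232.9. Lmf1, which encodes a factor for maturation of the lipase, read 100.78 and 70.23. Gpihbp1, the anchor of the lipase on endothelium, lay under the median on both arrays.

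Fabp4 encodes the fatty acid binding protein of fat cells and macrophages and had the lowest ratios of the 10 genes. Its brightest probe set read 235.41 and 52.17 on the control and knockdown arrays, 4.51-fold lower. The next read 195.87 and 35.87, 5.46-fold lower, the 147th lowest ratio of the array. The knockdown signals lay near or under the median, and the table has no detection calls. With 24.3, the 25th percentile of all signals, added to every signal, the log2 ratios were -1.76 and -1.87 in place of -2.17 and -2.45, still past 2-fold.

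The other probe sets of Fabp4 were dim on both arrays and had no common direction. One read 15.31 and 7.58, 2.02-fold lower, and its log2 ratio was -0.31 with 24.3 added. The other read 16.59 and 18.97. The former is annotated to the same source sequence as the probe set with the 5.46-fold value. Fabp4 lies on chromosome 3 from 10204342 to 10208616 and spans 4.3 kb. Of bright genes under 10 kb long, 2.35% were at least 2-fold lower.

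Fabp5, which encodes the epidermal fatty acid binding protein, was lower within 2-fold and alike at both probe sets. They read 2097.95 and 1254.81 and, for the second, 1194.15 and 713.12. Both were 1.67-fold lower, and both are annotated to 1 source sequence. Fabp5 lies 187.7 kb from Fabp4 on chromosome 3, from 10012585 to 10016610. Pmp2, Fabp9 and Fabp12, further family members between and beside this pair, read at most 51.04 and had log2 ratios of -0.28, 0.39 and 0.21.

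Across the wider family of lipid carriers, values lay on both sides of 0. Of 11 measured relatives 1 was at least 2-fold lower and 0 were higher, and 6 ratios were below 0. Fabp3, the fatty acid binding protein of heart and muscle, read 697.9 and 1035.92, 1.48-fold higher. Fabp7, that of brain, read 197.38 and 282.33, 1.43-fold higher. Crabp2, which encodes a carrier of retinoic acid, read 315.18 and 134.05, 2.35-fold lower, and its relative Crabp1 read 2878.94 and 1604.58, 1.79-fold lower. Fabp1, Fabp2, Fabp6, Fabp9 and Pmp2 lay under the median on both arrays.

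Cd36 encodes a fatty acid translocase and scavenger receptor, and its 3 probe sets were all lower, 1 of them past 2-fold. That probe set read 71.97 and 27.75 on the control and knockdown arrays, 2.59-fold lower. The brightest read 72.07 and 38.1, 1.89-fold lower. The dimmest read 9.07 and 6.94, near the bottom of the range. All 3 are annotated to 1 source sequence. The knockdown signals lay under the median, and with 24.3 added no Cd36 probe set was past 2-fold (log2 ratios of -0.89, -0.63 and -0.10). Cd36 lies on chromosome 5 from 17781690 to 17888959 and spans 107.3 kb. Of bright genes between 80 and 160 kb long, 8.3% were at least 2-fold lower, and the part of gene length in the Cd36 value was not tested.

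Plin2, which encodes the perilipin that coats lipid droplets in most cell types, was the only one of the 10 genes with a bright probe set above 0. It read 1924.13 and 3258.51 on the control and knockdown arrays, 1.69-fold higher. Its log2 ratio of 0.76 was the 1348th highest of the 45037, and it had no second probe set. Plin2 lies on chromosome 4 from 86626910 to 86670217. Among the other perilipins, Plin3 read 800.67 and 751.28, Plin4 read 130.82 and 108.39 and Plin5 read 40.38 and 43.21. Their log2 ratios ran from -0.27 to 0.10, all nearer to 0 than that of Plin2.

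Adipoq, the adiponectin gene, lay near the bottom of the range on both arrays. It read 12.24 and 15.36, and its log2 ratio of 0.33 is that of 2 dim values. Adipoq lies on chromosome 16 from 23146536 to 23157968. Other markers of mature fat cells were mostly dim too. Of 11 measured, 0 differed by 2-fold and 2 lay above the median on both arrays, and their signals summed to 527 on the control array and 517 on the knockdown array. Cidec, Lipe, Pck1 and Adig, genes of fat cell droplets, lipolysis, glycerol supply and maturation, read between 16.72 and 33.86. Lep, the leptin gene, read 146.35 and 150.23.

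**Figure D2:**
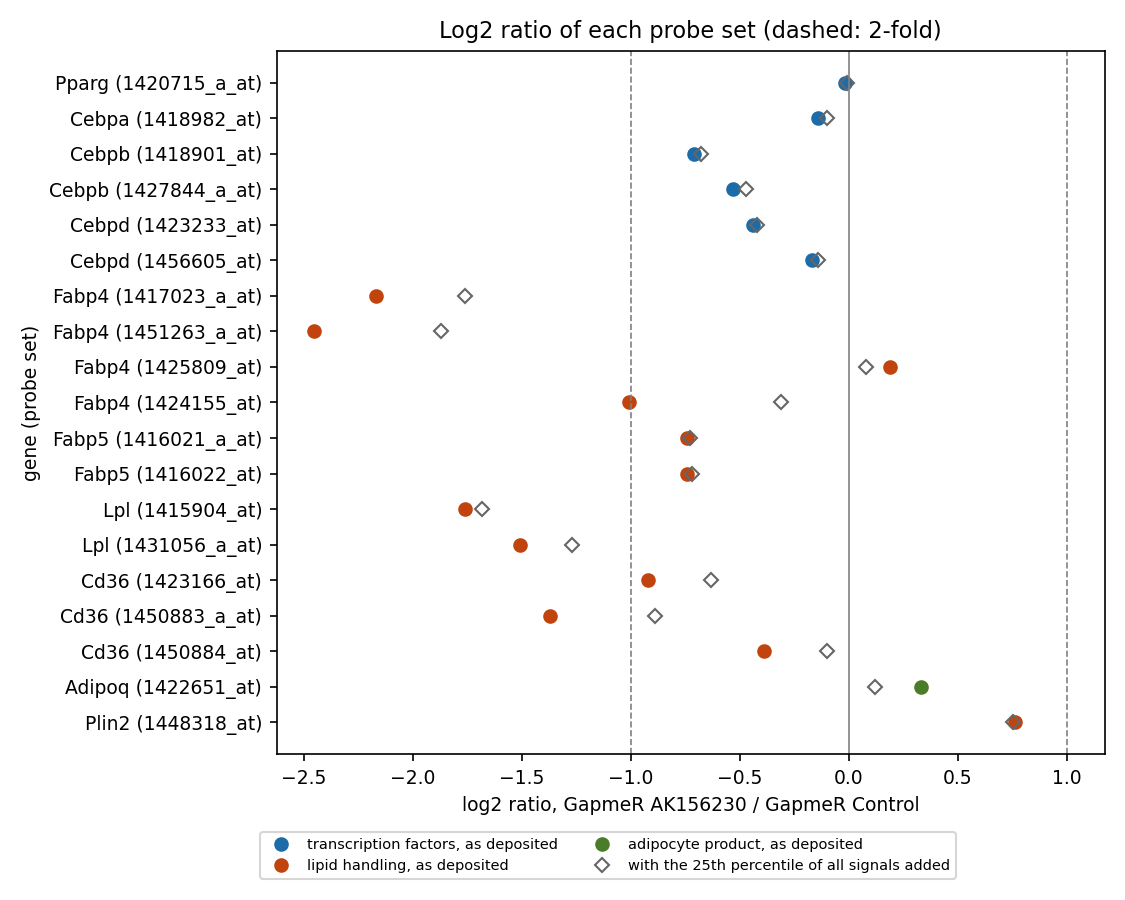
log2 of knockdown over control for each of the 19 probe sets, coloured by role, with open diamonds for the ratio after adding the 25th percentile of all signals and dashed lines at 2-fold. The 2 bright Fabp4 probe sets (-2.17 and -2.45) and both Lpl probe sets (-1.76 and -1.51) stay beyond the dashed line with the addition, and those of Cd36 do not.

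**Figure D3:**
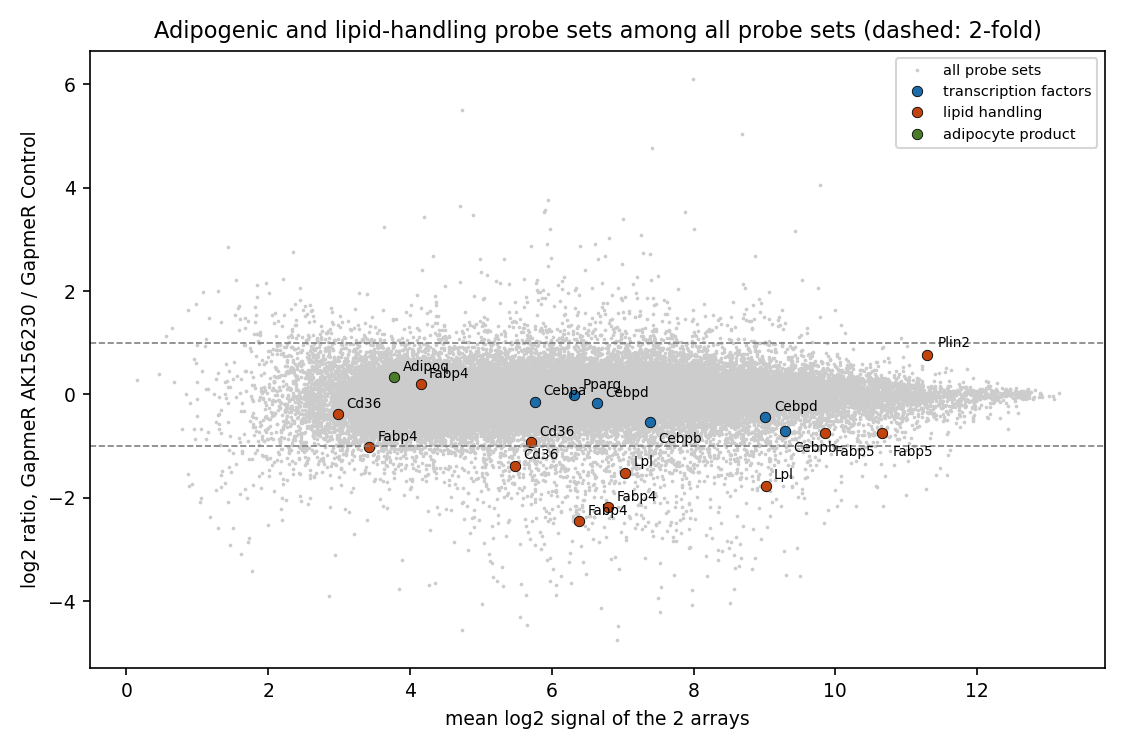
log2 of knockdown over control against mean log2 signal for all 45037 probe sets (grey), with the 19 probe sets coloured by role and dashed lines at 2-fold. The brighter Fabp4 and Lpl points lie below the lower dashed line, Plin2 lies to the right at 0.76, and the transcription factors lie between the dashed lines.

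Genes of the wider pathways mostly stayed within 2-fold. Of 142 measured genes on 10 lists of adipogenic factors and fatty acid metabolism, 9 were at least 2-fold lower (6.34%) and 2 were higher (1.41%), beside 3.85% and 1.59% of all named genes. Their median log2 ratio was -0.12, and -0.074 over all named genes.

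Among 19 measured activators of adipogenesis, 2 were lower and 1 was higher to that degree. Fto, which encodes an RNA demethylase, read 389.73 and 158.31, 2.46-fold lower, but a dim second probe set had a log2 ratio of 0.15. Ebf1, an early B-cell factor that also promotes adipogenesis, read 273.11 and 113.1, 2.41-fold lower, with log2 ratios of -1.27, -0.96, -0.63 and -0.13 at its other probe sets. Egr2, an early response gene also known as Krox20, read 48.27 and 139.84, 2.90-fold higher, with 0.90 (log2) at its second probe set. Fto and Ebf1 span 355.1 kb and 390.0 kb. Of bright genes over 160 kb long 25.4% were at least 2-fold lower, and the part of length in these values was not tested. Klf4, an early factor, and Klf5, which acts after the early C/EBP factors, had log2 ratios of -0.10 and 0.94. Averaged over their probe sets, Fto and Ebf1 had log2 ratios of -0.58 and -0.85, within 2-fold.

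Among 18 measured inhibitors of adipogenesis, 1 was higher and 1 was lower to that degree. Gata3, which encodes a factor that holds precursors back by restraining Pparg, read 67.3 and 325.1 at its only probe set, 4.83-fold higher. Zfp521, a zinc finger gene that opposes fat commitment, read 543.0 and 244.46, 2.22-fold lower, with -0.44 (log2) at its second probe set, and spans 285.7 kb. The average of both probe sets, -0.79, was within 2-fold. Dlk1, which encodes the preadipocyte marker Pref-1, read 524.09 and 444.05.

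Genes of fatty acid use were mostly within 2-fold too. Of 13 measured genes of uptake and activation, Scarb2, a lysosomal relative of Cd36, was 2.03-fold lower (1505.66 and 742.86), with -0.10 (log2) at its second probe set, and lay within 2-fold under each other scaling and with the offset. Of 19 measured genes of droplets and lipolysis, G0s2, which encodes an inhibitor of adipose triglyceride lipase, was 3.07-fold lower (74.52 and 24.29), and its knockdown signal lay under the median. Mgll, the monoglyceride lipase gene, had a log2 ratio of -0.99 at its brightest probe set. Of 12 measured genes of oxidation and PPAR targets, Acot2, a mitochondrial thioesterase gene, was 2.16-fold lower (725.87 and 335.83), with -0.35 (log2) at a dimmer probe set and an average of -0.73, within 2-fold. All 15 genes of triglyceride synthesis were within 2-fold, with a median log2 ratio of -0.021. Of 14 measured adipokines and receptors, Cdh13, which encodes T-cadherin, a receptor of adiponectin, was 3.02-fold lower (127.4 and 42.24) and spans 1184.9 kb. Its knockdown signal lay under the median, further probe sets gave -1.22, -0.37 and 0.33 (log2), and the average of all 4 was -0.71, within 2-fold.

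**Figure D4:**
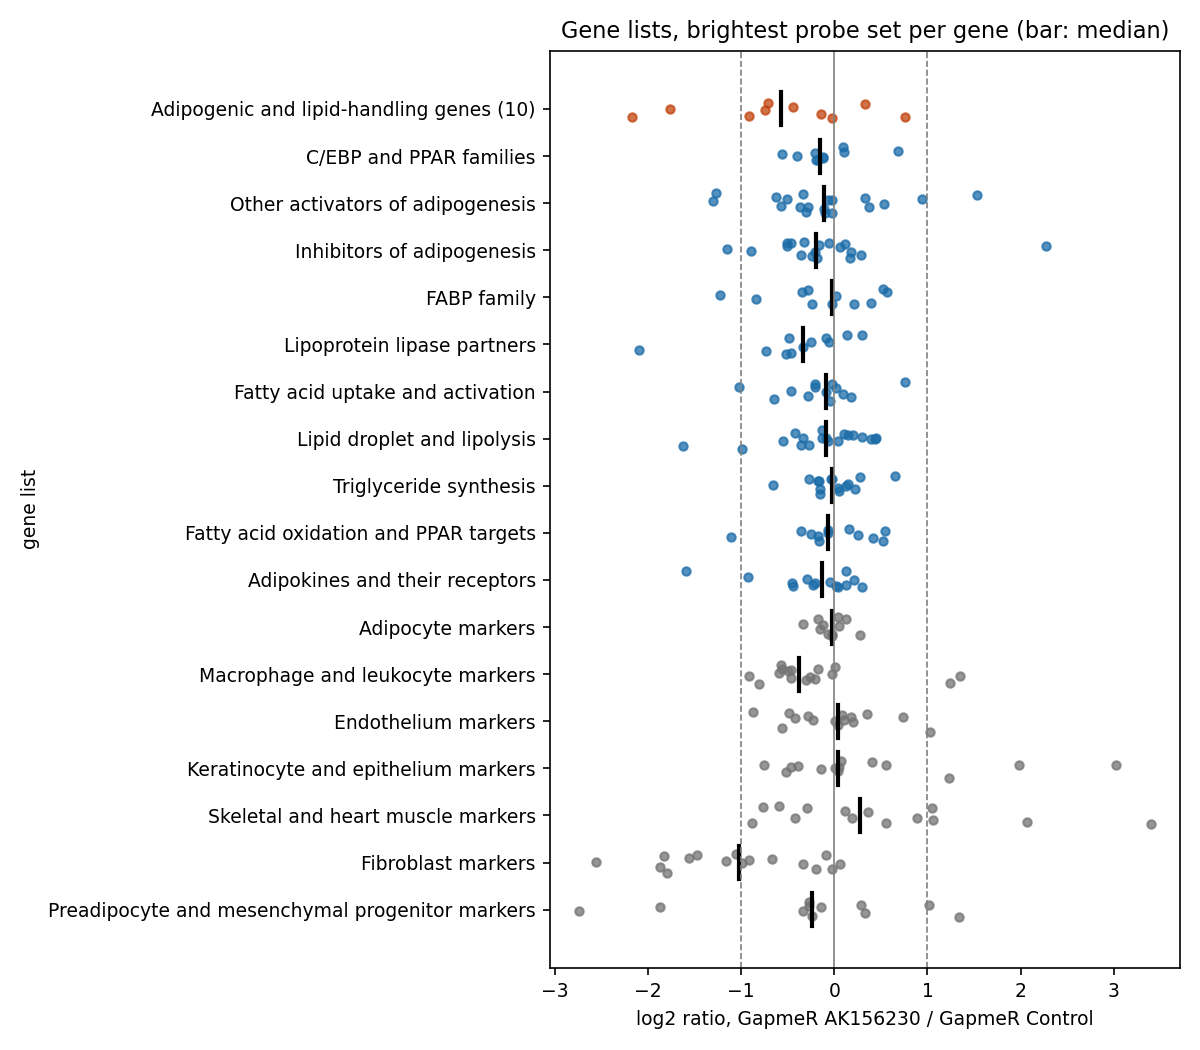
log2 of knockdown over control by the brightest probe set of each gene, for the 10 genes (orange), the pathway lists (blue) and the cell type marker lists (grey), with a black bar at each median and dashed lines at 2-fold. The 10 genes have a median of -0.57, the lipoprotein lipase partners -0.34, the fibroblast markers -1.02 and the triglyceride synthesis genes -0.021.

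Other cell types can carry some of these genes, and their markers had values of their own. Over all named genes, 3.85% were at least 2-fold lower, 1.59% were at least 2-fold higher and 58.8% had ratios below 0. Of 16 macrophage and leukocyte markers, which can go with Pparg, Cd36, Lpl, Fabp4 and Plin2, 13 had ratios below 0, 0 were at least 2-fold lower and 2 were higher, and the median log2 ratio was -0.38. Their signals summed to 2086 on the control array and 1910 on the knockdown array. Lyz2 read 724.68 and 526.64 and Adgre1 read 86.97 and 59.19, while Cd68 was 2.54-fold and Cd14 2.37-fold higher. Of 15 endothelial markers, which can go with Cd36, Fabp4 and Fabp5, 1 was higher and 0 lower to that degree, with sums of 1428 and 1118. Ratios of 9 of the 15 were above 0, and the median log2 ratio was 0.041. Flt1 read 580.18 and 317.72 and Egfl7 read 322.28 and 218.03, and these brightest markers carried the lower sum. Kdr was the higher one at 44.54 and 90.91. The defining markers Pecam1 and Cdh5 read at most 33.63. Keratinocyte and epithelium markers, which can go with Fabp5, summed to 1210 and 2363, with 3 of 14 higher and 0 lower. The 3 were Perp (270.64 and 1066.78), Dsp (39.3 and 319.21) and Krt18 (126.94 and 298.63), while Krt5, Krt14, Krt15, Krt17, Cdh1 and Trp63 lay under the median on both arrays. Muscle markers, which can go with Lpl, Cd36 and Fabp3, summed to 1278 and 2193, with 4 of 14 higher and 0 lower. The 4 were Chrna1 (39.66 and 418.27), Tnnt2 (59.74 and 250.21), Tnnc1 (59.32 and 123.28) and Myf5 (5.33 and 11.02), the last dim on both arrays. Ratios of 9 muscle markers were above 0 and of 5 below 0. Among the latter were Myod1 (59.81 and 35.33) and Des (378.83 and 309.38). Fibroblast markers summed to 49137 and 32238, with 8 of 16 at least 2-fold lower and 0 higher. Ratios of 15 of the 16 were below 0, and the median log2 ratio was -1.02. The smallest signal of any probe set was 1, and without detection calls a dim signal does not tell whether a marker was present. In a bulk culture fewer cells of a type and less RNA per cell cannot be told apart, and the part of these cell types in the values of the 10 genes was not tested.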

How the data were processed

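Total RNA of 1 GapmeR Control and 1 GapmeR AK156230 culture of young MEFs was hybridized to 1 Affymetrix array each. The deposited values are linear probe set intensities that the authors made with MAS5, per the submitters' processing notes; its version and scaling target were not given in the sources used. The methods name a porcine array, while the labels give mouse RNA and the probe identifiers match the mouse annotation, which was used. The table had no detection calls.

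Log2 ratios of the knockdown over the control signal were computed without an offset, and 2-fold was the threshold. The SAM test of the methods needs groups of arrays, so no test was run. Of 45037 probe sets 34945 had 1 gene symbol, 932 had several and 9160 had none; 34741 symbols were updated through Entrez IDs, and positions are RefSeq's for GRCm38.p6. Each gene was read from its probe set of highest mean log2 signal. The 10 genes, 10 pathway lists and 7 marker lists were chosen with earlier results of these data known. Pathway genes are named where they passed 2-fold and were bright, at most 4 per list, or where they belong to a family of the 10 genes. The others named (Klf4, Klf5, Angptl4, Lmf1, Gpihbp1, Dlk1, Mgll, Crabp1, Zfp423) were picked after seeing their values. The alternatives changed the scaling (median, quantile, loess), the offset, the filter on dim or cross-hybridizing probe sets, the threshold and the summary over probe sets. The median, quantile and loess scalings and the 2-fold calls were tested on simulated data. The simulated noise was alike at all signal levels, so the greater uncertainty of dim signals was not covered. The other steps were not tested in this way. Python 3.11.15, numpy 2.4.6, pandas 2.3.3, statsmodels 0.14.6 and matplotlib 3.10.9 were used.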

Additional observations from a re-analysis of the deposited data

How the results depend on the processing

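Fabp4 and Lpl were lower by 2-fold or more under each of the 8 settings that give a log2 ratio (Fabp4 from -2.17 to -1.36, Lpl from -1.76 to -1.64), and no other gene of the 10 passed 2-fold under any of them. The 8 include the deposited values. The filters on dim and on cross-hybridizing probe sets kept the same Fabp4 and Lpl probe sets, so they could not change these ratios. Scaling to the same median moved the median log2 ratio of all probe sets from -0.066 to 0.039, and Pparg, at -0.02 as deposited, then had 0.09, with 0.07 by quantile normalization and 0.05 by loess. Plin2 ranged from 0.75 to 0.87. The count of lower probe sets was 6 as deposited and between 4 and 6 with the other scalings, the offset and the filters. With a 1.5-fold threshold 10 probe sets and 5 genes of the members were lower and 1 probe set and 1 gene were higher, and of the pathway genes 17 were lower and 6 higher, against 9 and 2 at 2-fold. Quantile normalization and scaling to the same median gave 3 higher pathway genes, the third being Klf5. Median scaling, quantile normalization, loess and the offset each gave 8 lower pathway genes in place of 9, without Scarb2. Averaging over every probe set of each gene left 3 (Vldlr, G0s2 and Crabp2), without Fto, Ebf1, Zfp521, Acot2, Scarb2 and Cdh13, whose other probe sets had ratios mostly nearer to 0. G0s2 and Crabp2 have a single probe set each, so averaging could not change them. Signals under the array's median, without detection calls, limit the ratios of Cd36, Adipoq, Fabp4, G0s2, Cdh13, Egr2 and Mme. They also limit those of the dimmer Vldlr probe sets. No paired analysis was possible because each condition has 1 array.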

Other observations

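Markers of preadipocytes and mesenchymal progenitors, the precursors in which the adipogenic factors act, had values on both sides of 0. Of 11 measured, 2 were at least 2-fold higher on the knockdown array and 2 at least 2-fold lower. Over all named genes the shares were 1.59% and 3.85%. Cd24a, a surface marker of adipocyte progenitors, read 679.91 and 1724.26 on the control and knockdown arrays, 2.54-fold higher, with log2 ratios of 1.62 and 1.13 at 2 further probe sets. Icam1, an adhesion molecule also induced by inflammatory signals, read 199.45 and 403.94, 2.03-fold higher, and 0.94 (log2) with 24.3 added to each signal, within 2-fold. Mme, which encodes neprilysin, read 105.77 and 15.87, with the knockdown signal so dim that the size of the ratio is uncertain: the log2 ratio was -2.74 as deposited and -1.69 with 24.3 added, and -0.57 at a second, dim probe set. Pdgfra, which encodes a growth factor receptor of fat precursors and most fibroblasts, read 1038.96 and 283.31, 3.67-fold lower, with -0.92 and -1.22 (log2) at 2 further probe sets. Zfp423, which encodes a factor of preadipocyte commitment, read 67.94 and 85.14.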
